A study of Mus musculus with 9 samples.

Results

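The clustered histone genes are the 67 genes whose symbols begin with Hist1h, Hist2h, Hist3h or Hist4h among the 40548 genes of the day 0 and day 7 expression table. They comprised 6 genes for the linker histone H1 and 20 for H2A, 16 for H2B, 12 for H3 and 13 for H4, the core histones. By gene class in the deposited annotation, 64 were protein-coding and 3 were pseudogenes. Ribo-depleted total RNA was sequenced from primary calvarial cells, 3 libraries at each of 3 stages, to follow gene expression as the cells become osteoblasts. The cells came from the skull vault of postnatal day 2-3 C57BL/6 mice, by the labels, and were grown to confluence. Day 0 cells had no differentiation, and day 4 and day 7 cells had spent that many days in mineralization medium, which contains β-glycerol phosphate and ascorbic acid. The study's methods give the strain as C57BL/6J and used wild type pups or pups with a ColI-GFP reporter, and the labels do not say which gave these libraries. Mineralized cultures were treated with collagenase I before trypsin and the others were not, so that step cannot be told apart from stage. These are mixed primary cells from pups of both sexes, and the study calls the libraries of a stage biological replicates without saying whether they came from separate isolations. The p-values below measure the spread between these libraries, with the variance of each gene drawn toward a trend over all genes.

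Replication-dependent histone genes supply the proteins that package new DNA during S phase, and their mRNAs are the metazoan mRNAs that end in a conserved stem-loop instead of a poly(A) tail. The stem-loop is bound by SLBP, which acts in processing, translation and decay of the mRNA, so that histone mRNA rises when DNA replication begins and is destroyed when it stops. A few clustered genes can also end in a poly(A) tail, and cells that leave the cycle use such transcripts together with the replacement variants encoded outside the clusters. Libraries made from total RNA, as here, capture both kinds.

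The stem-loop and the promoters are shown first, with the part of the members in which each feature was found. In the GENCODE M21 annotation of GRCm38, 53 of the 54 Hist1 genes lay at chr13:21715763-23934851, with the pseudogene Hist1h2al apart on the same chromosome. The 9 Hist2 genes lay at chr3:96219865-96269141, the 3 Hist3 genes at chr11:58948920-58956830 and Hist4h4 at chr6:136801553-136804415. Annotated transcripts were searched after the stop codon for a 6-base stem starting with GG and a 4-base loop with T at its bases 1 and 3. The loop had to be followed by 6 bases that pair with the stem (G:T pairs included) and end in CC. A match was found in 44 of 67 genes, beginning 22 to 59 bases after the stop codon. The outer GG and CC of the sequences were thus set by the search. Of the 15 tested genes with no match, 12 have an annotated transcript that ends under 16 bases after the stop codon. The stem-loops had 8 different sequences. Of the commonest, 4 are given with the stem in capitals, each at the site of a gene described below, written 5′ to 3′ on the strand of the gene.
Hist1h1c, chr13:23739512-23739527, plus strand: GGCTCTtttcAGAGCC
Hist1h2bb, chr13:23747203-23747218, plus strand: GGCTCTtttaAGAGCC
Hist1h4d, chr13:23581950-23581965, plus strand: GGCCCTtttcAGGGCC
Hist2h4, chr3:96262939-96262954, minus strand: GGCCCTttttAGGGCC

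The first sequence was found in 24 genes, 3 of H1, 10 of H2A, 6 of H2B and 5 of H3, and in 0 of H4. The second was found in 6 genes, of H1, H2B and H3. The third was found in 7 genes and the fourth in 2, all of H4. In all, 12 of the 13 H4 genes had a match, each with a sequence that no gene of another type carried. After the stem-loop the annotated transcript runs on for 840 bases in Hist1h1c, 23 in Hist1h2bb, 770 in Hist1h4d and 1257 in Hist2h4.

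Promoter sequences were taken from RefSeq (GRCm38.p6), where 59 of the 67 genes had a window around the start site, most of it upstream. The 4 motifs below were searched on both strands, and overlapping matches of different motifs were each counted. The TATA box (TATAAA) was in 59.3% of members and 15.7% of all 27025 genes with a window. The CCAAT box (CCAAT) was in 100% of the H1, H2A, H2B and H3 windows but in 3 of 12 H4 windows, against 41.1% of all genes. The octamer (ATTTGCAT) was in 7 of 18 H2A and 5 of 13 H2B windows, in 0 windows of the other types and in 1.97% of all genes. The H1 box (AAACACA) was in 5 of 6 H1 windows, all but that of Hist1h1a, and in 8.22% of all genes. The 130 bases before the start site are shown for 3 linker histone genes and for the H4 gene with the highest level, with the motif matches in capitals.
Hist1h1a, chr13:23763538-23763667, plus strand: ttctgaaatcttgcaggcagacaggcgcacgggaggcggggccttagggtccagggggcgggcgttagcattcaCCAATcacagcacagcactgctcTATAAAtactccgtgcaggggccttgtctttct
Hist1h1b, chr13:21780626-21780755, minus strand: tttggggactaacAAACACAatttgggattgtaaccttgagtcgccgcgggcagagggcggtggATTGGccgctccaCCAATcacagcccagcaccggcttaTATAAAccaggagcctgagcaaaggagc
Hist1h1c, chr13:23738677-23738806, plus strand: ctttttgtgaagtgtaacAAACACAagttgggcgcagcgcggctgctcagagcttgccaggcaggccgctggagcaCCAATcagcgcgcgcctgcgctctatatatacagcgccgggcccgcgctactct
Hist1h4d, chr13:23581438-23581567, plus strand: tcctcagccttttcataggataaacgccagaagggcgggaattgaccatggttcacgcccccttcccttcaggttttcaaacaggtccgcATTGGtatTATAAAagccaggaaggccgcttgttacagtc

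The members resemble each other, which bears on how their reads can be counted. Translated from the annotated coding sequences, the 13 H4 genes encoded 1 identical protein of 103 residues. The H3 genes encoded 3 proteins, and those of equal length were at least 99.3% identical. Identity within H2A was at least 89.1% and within H2B at least 92.1%, again between proteins of equal length. The 6 H1 proteins all differed from each other. The reads were counted on an older annotation, in which 34 of the 50 tested members have the length of their GENCODE M21 exons, within 5 bases. In these 34 a median of 64.2% of the distinct 50-base stretches also occurred, on either strand, in transcripts of another gene, with a range from 0% to 94.0%. Most of the other 16 were counted on a shorter model, so their shares in GENCODE M21 do not describe the counted length. One is Hist1h4d, counted on 393 bases of the 1138 in its exons. The study counted only reads with 1 alignment to 1 gene, so levels of members with many shared stretches are lower bounds of unknown size. Of the 34, 11 have exons that overlap another gene in GENCODE M21.

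By depth, the libraries held 7741204 to 15622755 reads on genes at day 0 and day 7 and 32820610 to 37306090 at day 4. The libraries labelled day 0 replicate 3 and day 7 replicate 2 stood apart, with 12% and 8.12% of their reads on Gm42418, a gene model with ribosomal RNA-like sequence, against 0.110% to 3.04% in the other libraries. In the library labelled day 7 replicate 3, 7.95% of reads lay on Plekhh2. The stage labels were checked against osteoblast markers. Of 10, 9 were higher at day 7 than at day 0, including Bglap (osteocalcin) and Ibsp (bone sialoprotein). Among markers of other cells, all 7 tested macrophage markers and all 3 tested osteoclast markers were higher at day 7, and 0 of 6 endothelial markers reached the level needed for a test. Summed over the list, macrophage markers reached 63.5 to 109 CPM at day 0, 124 to 136 at day 4 and 124 to 164 at day 7. The osteoclast markers summed to 150 to 199, 354 to 365 and 348 to 363 CPM, and the endothelial markers to 0.571 to 2.68 CPM at day 0 and at most 1.69 later. Only 3 of the 6 listed osteoclast markers reached the level for a test. Of these, Ctsk had 99.8 to 237 RPKM, Acp5 at most 8.34 and Atp6v0d2 at most 1.45. Ocstamp, Calcr and Dcstamp were at most 0.227, 0.0957 and 0.0367 RPKM in any library. The part of these cells in the histone values was not tested. CPM is the number of reads on a gene scaled to the same total of reads on genes in every library, and RPKM is the CPM per kilobase of gene model, the scale on which genes are compared with each other below.

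Of the 67 members, 50 had a mean of at least 1 CPM over the day 0 and day 7 libraries and were tested, 9 had reads below that level and 8 had no read in any library. The 8 without reads were Hist1h2ao, Hist1h2ap, Hist1h2bq, Hist1h2br, Hist2h2aa1, Hist2h2aa2, Hist2h3b and Hist2h3c1. In the GENCODE M21 transcripts of these genes 88.7% to 100% of the 50-base stretches occurred in other genes, and their counted lengths are not known. No reads allows up to 0.387 CPM of uniquely aligned reads in the shallowest library and up to 0.0804 CPM in the deepest, for counting error only. The 9 genes with few reads included the 3 members known from the testis. Hist1h1t, the testis linker histone, had 83 reads over all 9 libraries, Hist1h2aa, the testis H2A, had 7, and Hist1h2ba, the testis H2B, had 1. Of their GENCODE M21 stretches, other genes hold 0%, 23.8% and 38.2%.

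Added over the 67 genes, the clustered histone genes took 1883, 1915 and 1282 CPM in the 3 day 0 libraries. The sums were 1279, 971 and 1203 CPM at day 4 and 1747, 1333 and 2068 CPM at day 7. The lowest of the 9 sums were those of day 4, whose highest, 1279, lay just under day 0 replicate 3. The day 0 and day 7 sums overlapped, with means of 1693 ± 357 (SD, n = 3) and 1716 ± 368 (SD, n = 3). Day 4 was deposited in tables of its own at a greater depth, so it enters no test, and stage, table and depth cannot be told apart there. Fewer cells in S phase and less histone RNA per such cell cannot be told apart in bulk RNA.

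The share of each of the 5 types at day 4 lay outside the ranges of both other stages. H4 genes held 33.6% to 38.4% of the clustered histone reads at day 0, 31.2% to 33.1% at day 4 and 38.6% to 39.8% at day 7. The H1 genes held 25.1% to 28.8% at day 0 and 25.3% to 26.9% at day 7 but 32.9% to 36.2% at day 4. Of this, Hist1h1c alone held 8.07% to 8.94% at day 0, 15.1% to 20.2% at day 4 and 8.79% to 10.7% at day 7, and the other H1 genes together held 16.2% to 20%, 16% to 18.8% and 15.6% to 16.5%. For H3 the share was 11% to 11.8% at day 0, 7.71% to 9.36% at day 4 and 9.96% to 10.8% at day 7. H2A held 12% to 12.6%, 9.10% to 10.6% and 10.9% to 11.9%, and H2B held 13.1% to 13.4%, 13.9% to 15.3% and 12.7% to 13.5%, in the same order. The mean CPM at day 4 relative to day 0 was lowest for H3, at 0.52, followed by H2A at 0.55, H4 at 0.61, H2B at 0.75 and H1 at 0.86.

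**Figure D1:**
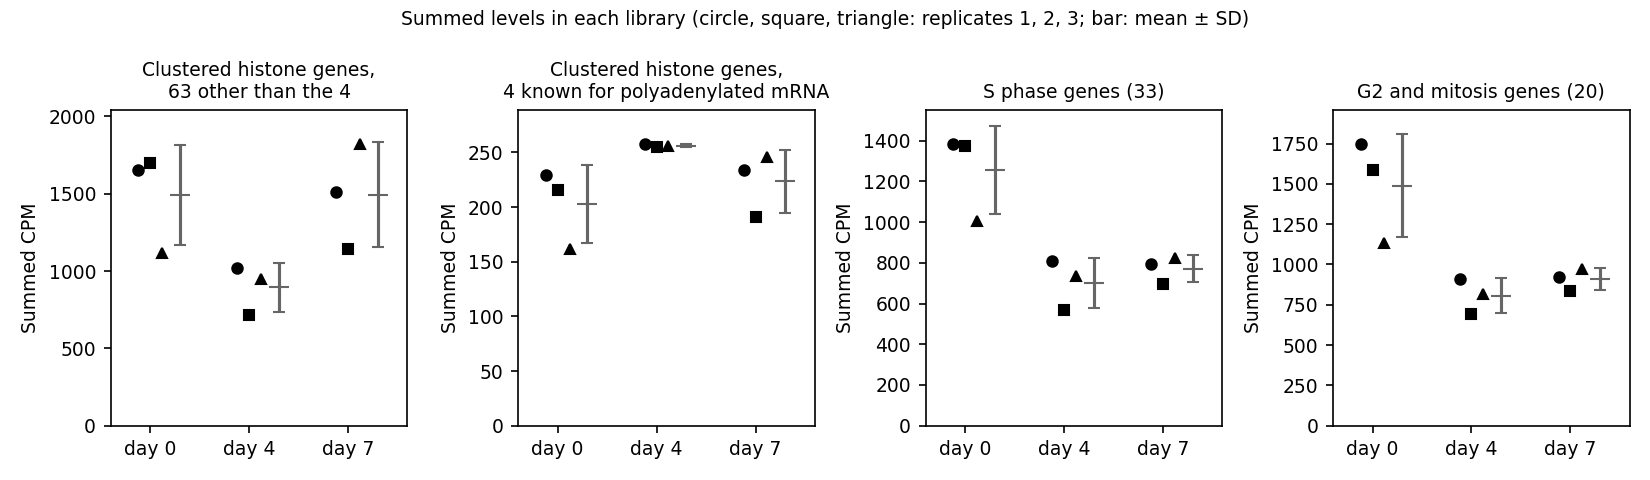
Summed CPM in each library (y axis) at day 0, day 4 and day 7 (x axis) for the clustered histone genes without and with known polyadenylated transcripts, for S phase genes and for G2 and mitosis genes. Symbols are replicates 1, 2 and 3 and bars show mean ± SD of 3 libraries. The 63 histone genes in the left panel are lower at day 4 than at day 0 and day 7, the 4 genes in the second panel are not, and both cell cycle lists are lower at day 4 and day 7 than at day 0.

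Which genes were low at day 4 was asked by direction alone. Every day 4 library lay below every day 0 and every day 7 library for 22 of the 50 tested members (44.0%), where 3.81% of the 12710 genes compared did so. Below every day 0 library were 28 members (background 22.2%), and below every day 7 library 24 (background 13.8%). Leaving out day 0 replicate 3 made the first of these counts 42 (background 49.7%), and leaving out day 7 replicate 2 made the second 40 (background 24.6%). Among other genes with a model of under 1500 bp, 7.67% were below both stages. The 22 comprised 7 of 10 H3 genes, 8 of 13 H4, 4 of 12 H2A, 2 of 10 H2B and 1 of 5 H1. Over the 34 tested members whose counted length is that of the GENCODE M21 exons, they comprised 3 of the 5 with under 25% of their stretches shared, 10 of the 17 with 25% to 75% shared and 1 of the 12 with over 75% shared. With a stem-loop match in the annotation, 18 of 35 tested members were below both stages, and without one 4 of 15, although 12 of those 15 have transcripts that end before a match could lie. Under other scalings and with each library left out in turn, the number below both stages was 22 to 28, and the background went up with it. It was 26 members against 7.56% of all genes with median-of-ratios scaling, 25 against 9.21% with rRNA-like and mitochondrial reads left out, 24 against 7.80% with day 0 replicate 3 left out and 28 against 6.77% with day 7 replicate 2 left out.

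These directions moved together with other measures. The day 4 libraries were the deepest. The 3 short RNAs below, which also lack a poly(A) tail, were followed beside the histone mRNAs. Rpph1, the RNA of RNase P, took 0.455% to 0.633% of reads at day 0, 0.380% to 0.489% at day 4 and 0.893% to 0.994% at day 7. Rn7sk, the 7SK RNA, took 0.405% to 0.552%, 0.330% to 0.402% and 0.553% to 0.615%. Rmrp, the RNA of RNase MRP, took 0.0372% to 0.0640%, 0.0636% to 0.0904% and 0.0921% to 0.155%. Rn7sk was thus also lower in every day 4 library than at day 0 or day 7, and all 3 RNAs were highest at day 7. The part of RNA recovery in the histone pattern was not tested. Of 7 immediate early genes, 6 were higher in every day 4 library than in all others, and their part was not tested either.

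The linker histone genes did not share one pattern over the stages. Hist1h1a, which encodes the linker histone H1.1, had 158, 151 and 80.0 RPKM at day 0, 72.9, 27.3 and 58.9 at day 4 and 74.1, 65.5 and 106 at day 7. Hist1h1b (H1.5) had 115, 126 and 67.8 RPKM at day 0, 55.98, 32.1 and 48.2 at day 4 and 92.2, 64.9 and 115 at day 7. For both, no day 4 library reached the level of any day 0 library, and between them only Hist1h1b had all day 7 libraries above day 4. Hist1h1c (H1.2), one of the 4 members known for polyadenylated transcripts, had 106, 99.1 and 73.4 RPKM at day 0, 124, 126 and 123 at day 4 and 116, 91.6 and 117 at day 7. It was higher in every day 4 library than in any other library, the only one of the 50 tested members for which this was so (background 7.77%).

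Hist1h1d (H1.3) had 127, 109 and 66.3 RPKM at day 0, 85.7, 59.6 and 74.4 at day 4 and 116, 82.7 and 138 at day 7. Hist1h1e (H1.4) had 128, 105 and 75.6 RPKM at day 0, 117, 92.8 and 99.8 at day 4 and 114, 75.6 and 112 at day 7, so its stages overlapped throughout. Hist1h1t stayed between 0.177 and 1.81 RPKM. Outside the clusters, H1f0, the replacement linker histone of cells that have stopped dividing, had 84.2, 82.5 and 61.2 RPKM at day 0, 121, 119 and 121 at day 4 and 108, 94.5 and 106 at day 7. Its libraries did not overlap between stages, with day 4 the highest.

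As a share of the RPKM summed over these 6 genes, H1f0 and H1fx, Hist1h1a held 18.7% to 22.2% at day 0, 5.94% to 12.6% at day 4 and 11.9% to 15.2% at day 7. The share of H1f0 was 11.7% to 14.3% at day 0, 20.8% to 25.8% at day 4 and 15.2% to 19.8% at day 7. These shares do not depend on the library total. They do depend on the counted lengths, such as 1560 bases for Hist1h1c against 642 for Hist1h1a.

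**Figure D2:**
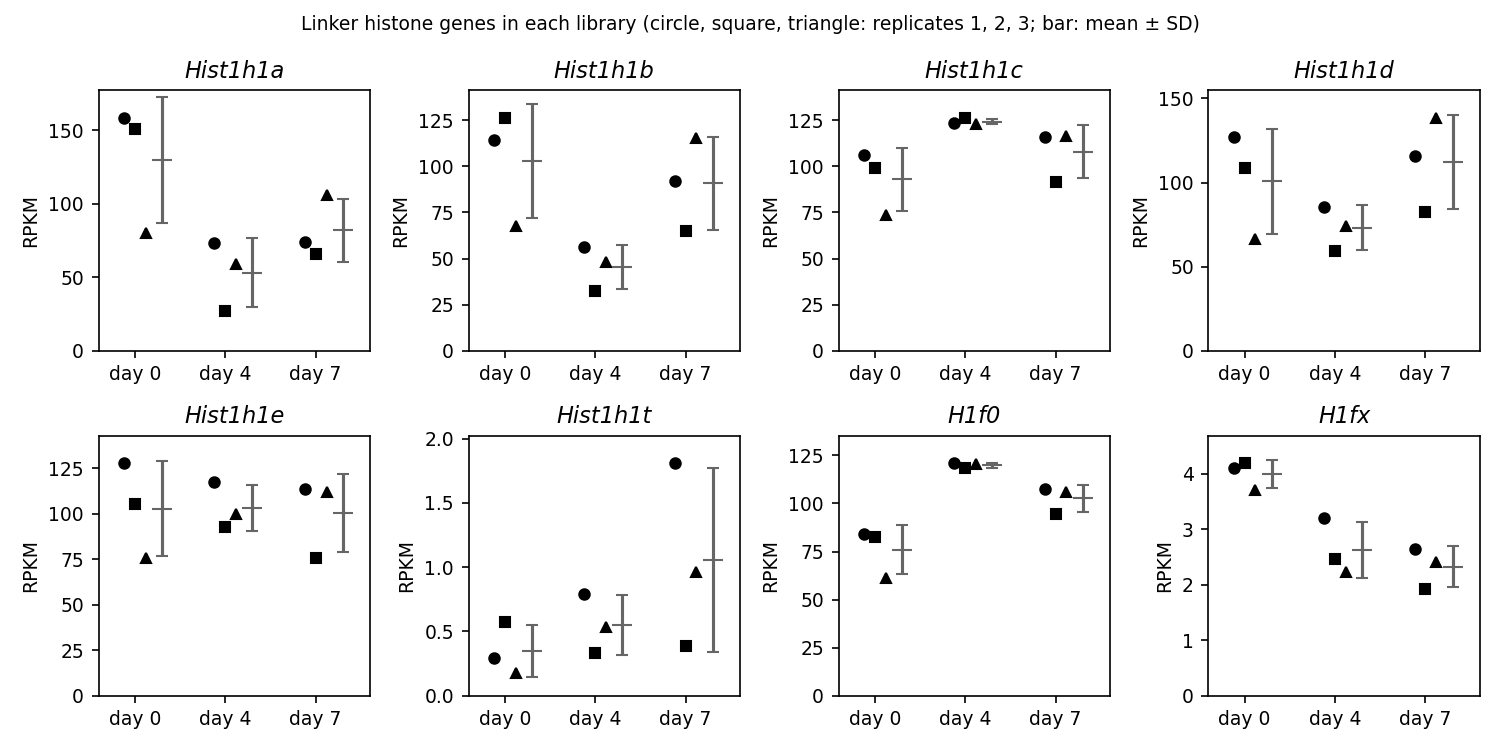
RPKM of each linker histone gene (y axis, own scale per panel, from 0) in each library at day 0, day 4 and day 7 (x axis). Symbols are replicates 1, 2 and 3, and bars show mean ± SD of 3 libraries. Hist1h1a and Hist1h1b are lower at day 4 than at day 0, and Hist1h1c and H1f0 are highest at day 4.

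The 3 other members known for polyadenylated transcripts differed in level. Hist1h2bc, an H2B gene with a spliced transcript in GENCODE M21, had 73.4, 71.1 and 54.7 RPKM at day 0, 77.8, 65.4 and 75.8 at day 4 and 64.6, 54.9 and 78.1 at day 7. Hist3h2a, an H2A gene, had 2.96, 3.16 and 2.59 RPKM at day 0, 2.50, 3.40 and 2.87 at day 4 and 1.88, 2.44 and 2.18 at day 7, with every day 7 library below every day 0 library. Hist2h2be, an H2B gene, was between 0.586 and 1.22 RPKM in all libraries. Summed, the 4 genes took 229, 216 and 162 CPM at day 0, 258, 255 and 256 at day 4 and 234, 191 and 246 at day 7. All day 4 sums were above all day 0 and day 7 sums, whereas the other 63 genes together were below them, at 717 to 1021 CPM against 1120 to 1699 at day 0 and 1143 to 1823 at day 7. The 4 genes thus held 11.3% to 12.6% of clustered histone reads at day 0, 20.2% to 26.2% at day 4 and 11.9% to 14.3% at day 7. Of these reads, most were of Hist1h1c, and the counts do not tell a polyadenylated from a stem-loop end of the same gene.

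Among the core histones the 3 highest levels were those of H4 genes. Hist1h4d had 393, 427 and 371 RPKM at day 0, 340, 263 and 325 at day 4 and 437, 355 and 477 at day 7. Hist1h4c had 215, 248 and 160 RPKM at day 0, 146, 133 and 154 at day 4 and 248, 189 and 288 at day 7. Hist1h4h had 209, 226 and 143 RPKM at day 0, 86.0, 79.1 and 81.2 at day 4 and 202, 161 and 237 at day 7. In all 3 genes no day 4 library reached the level of any other. Hist1h4c came close, at 154 RPKM against 160 at day 0, and so did Hist1h4d, at 340 against 355 at day 7. The mean day 4 level was 0.78 of that at day 0 for Hist1h4d, 0.69 for Hist1h4c and 0.43 for Hist1h4h. The 13 genes encode the same protein, but the size of their shares depends on how many of their reads align uniquely. Of the GENCODE M21 stretches, other genes hold 1.01% for Hist2h4 and 89.8% for Hist1h4m. Counted lengths, on which RPKM also depends, run from 312 bases for Hist1h4k to 2879 for Hist4h4. Hist1h4d held 28.5% to 35.2% of the summed H4 RPKM at day 0, 38.02% to 39% at day 4 and 28.9% to 32.5% at day 7. Hist1h4h held 13.6% to 15.3% at day 0, 9.51% to 11.4% at day 4 and 14.3% to 14.7% at day 7.

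Of the H3 genes, the 4 that encode H3.1 (Hist1h3a, Hist1h3g, Hist1h3h and Hist1h3i) had summed levels of 82.2 to 148 RPKM at day 0, 34.0 to 61.4 at day 4 and 69.9 to 134 at day 7. The genes for H3.2 had 149 to 231 RPKM at day 0, 83.0 to 126 at day 4 and 146 to 233 at day 7. The member with the lowest day 4 level relative to day 0 was Hist1h3g, with 68.5, 71.9 and 37.2 RPKM at day 0, 21.4, 10.5 and 19.5 at day 4 and 46.8, 32.4 and 55.1 at day 7. Hist1h3e had 59.5, 55 and 40.9 RPKM at day 0, 34.9, 25.8 and 35.5 at day 4 and 58.3, 39.4 and 62.6 at day 7. The day 4 libraries were below all others for this gene too. For Hist1h3c the values were 59.2, 48.6 and 33.3 RPKM at day 0, 32.9, 17.0 and 28.5 at day 4 and 42.2, 36.6 and 57.7 at day 7. H3.3, the replacement variant laid down independently of DNA replication, comes from H3f3a and H3f3b. Together they had 63.9 to 102 RPKM at day 0, 77.0 to 81.4 at day 4 and 85.0 to 96.7 at day 7. Per RPKM of these 2 genes there were 3.61 to 3.79 RPKM of clustered H3 at day 0, 1.44 to 2.36 at day 4 and 2.54 to 3.80 at day 7, with no overlap of day 4 with the other stages. Only uniquely aligned reads enter this ratio, and Hist2h3b and Hist2h3c1 had none, so its size is not that of all H3 mRNA.

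Hist1h2ak, the H2A gene with the highest mean level, had 96.5, 103 and 82.5 RPKM at day 0, 55.2, 28.4 and 45.2 at day 4 and 88.6, 59.1 and 111 at day 7. For Hist1h2ab the values were 97.9, 104 and 65.0 RPKM, then 57.2, 34.5 and 48.8, then 77.1, 57.4 and 102. For Hist2h2ac they were 81.9, 82.6 and 56.9 RPKM, then 49.9, 38.2 and 48.2, then 78.5, 66.4 and 101. All 3 had every day 4 library below the rest, by a narrow margin in Hist1h2ab. Among H2B genes, Hist1h2bb had 138, 144 and 87.7 RPKM at day 0, 78.3, 46.8 and 69.5 at day 4 and 136, 105 and 169 at day 7. Hist1h2bg had 77.9, 80.4 and 57.4 RPKM at day 0, 70.3, 48.9 and 57.7 at day 4 and 62.9, 51.4 and 87.8 at day 7, and its stages overlapped. H2afx, the H2A.X gene outside the clusters, is known to make a stem-loop transcript as well as a polyadenylated one. It had 67.5, 70.7 and 53.0 RPKM at day 0, 40.7, 31.9 and 38.8 at day 4 and 66.4, 45.0 and 73.4 at day 7, below both stages at day 4. This was also so for H2afj and H2afv, and so for 3 of the 11 histone variant genes outside the clusters (background 3.81%).

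**Figure D3:**
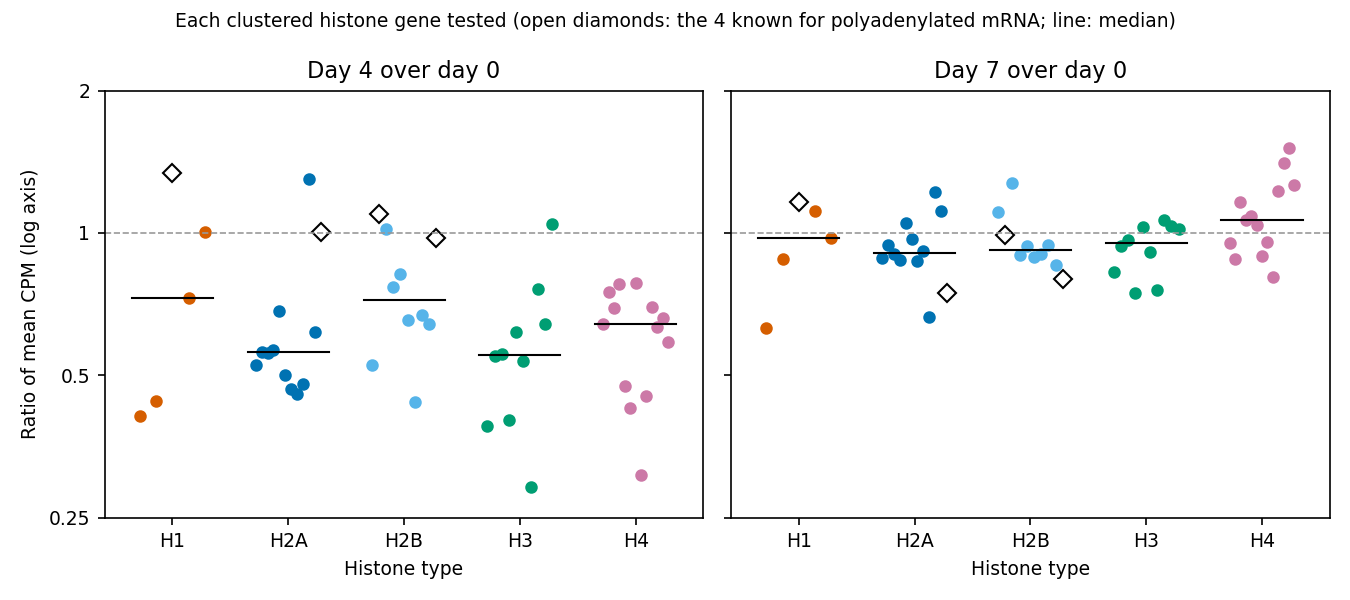
Ratio of mean CPM at day 4 to day 0 (left) and at day 7 to day 0 (right), on a log axis, for each of the 50 tested genes by histone type (x axis). Open diamonds are the 4 genes known for polyadenylated transcripts and lines are medians. Most genes lie under 1 on the left and around 1 on the right, with medians over the 50 genes of 0.63 and 0.95.

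Day 7 and day 0 share a table and were compared with limma on log2(CPM + 0.5), adjusted over all 12712 genes tested. Of the 50 members, 1 was higher at day 7 and 1 was lower at an adjusted p under 0.05. Over all genes 12.6% were higher and 18.6% were lower. The median difference was -0.07 (log2) over the members and -0.11 over all genes tested, and with median-of-ratios scaling these medians were 0.03 and -0.01. For 48 members the day 0 and day 7 libraries overlapped, the exceptions being Hist2h4 and Hist3h2a. Over the 12710 genes compared, 16.9% had every day 7 library above every day 0 library and 25.4% had every one below. The 95% interval of the difference lay within 1 log2 unit of 0 for 48 of the 50 and held 0 for 46. The intervals were 0.623 to 1.13 wide. At an unadjusted p under 0.05 there were 1 higher and 3 lower, against 15.2% and 24.98% of all genes.

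Hist2h4, an H4 gene of 1 exon at chr3:96261682-96263311 on the minus strand with 1.01% of its stretches shared, rose. It had 28.9, 41.1 and 30.9 RPKM at day 0, 21.9, 20 and 24.7 at day 4 and 52.4, 41.8 and 58.3 at day 7. Every day 7 library was above every day 0 library, with the lowest at day 7 close to the highest at day 0. The log2 difference was 0.59 (SE 0.16, limma adjusted p = 0.00414), and without day 7 replicate 3 the adjusted p was 0.0734. Hist2h4 held 2.12% to 2.94% of the summed H4 RPKM at day 0 and 3.53% to 3.82% at day 7. The size of this share depends on the counted lengths, 1630 bases for Hist2h4 against 393 for Hist1h4d. Hist1h1a, a gene of 1 exon at chr13:23763666-23764406 on the plus strand with no shared stretch in its GENCODE M21 transcript, fell by 0.63 on the log2 scale (SE 0.19, limma adjusted p = 0.00830). Its libraries overlapped, since day 7 replicate 3 was above day 0 replicate 3. The adjusted p was 0.0598 with day 0 replicate 1 left out, 0.0821 with day 7 replicate 1 left out and 0.0523 for day 7 replicate 2.

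For the other named members the interval of the difference held 0. Hist1h1c differed by 0.23 (95% interval -0.10 to 0.55), Hist1h1d by 0.17 (-0.20 to 0.54), Hist1h1b by -0.17 (-0.54 to 0.21) and Hist1h1e by -0.02 (-0.38 to 0.33). Of the genes with the highest levels, Hist1h4d differed by 0.08 (-0.23 to 0.40), Hist1h2bb by 0.15 (-0.20 to 0.51) and Hist1h3e by 0.03 (-0.32 to 0.39). Hist1h2bc differed by -0.01 (-0.35 to 0.32), Hist3h2a by -0.39 (-0.82 to 0.04) and Hist2h2be by -0.23 (-0.75 to 0.29).

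The counts of calls depended on the libraries and the scaling. Leaving out day 0 replicate 3, the shallowest library, gave 1 member higher and 8 lower, and over all genes 4696 lower calls in place of 2369. Leaving out day 7 replicate 3 gave 0 members higher and 2 lower, and leaving out day 7 replicate 2 gave 3 higher and 0 lower. Hist1h1a was not called without day 0 replicate 1 or day 7 replicate 1, which left 1 member higher and 0 lower. With median-of-ratios scaling Hist1h1c and Hist4h4, an H4 gene chosen after its values were seen, were called higher beside Hist2h4. The edgeR quasi-likelihood test on the recovered reads called 4 members higher and 1 lower. Of all 12712 genes tested, edgeR called 5468, 51.5% of them higher. Median-of-ratios scaling called 5456, 51.8% of them higher. Calls in both directions over all genes were 2966 without day 7 replicate 3 and 3028 without day 7 replicate 2. They were 3233 without day 0 replicate 1 and 2906 without day 7 replicate 1.

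**Figure D4:**
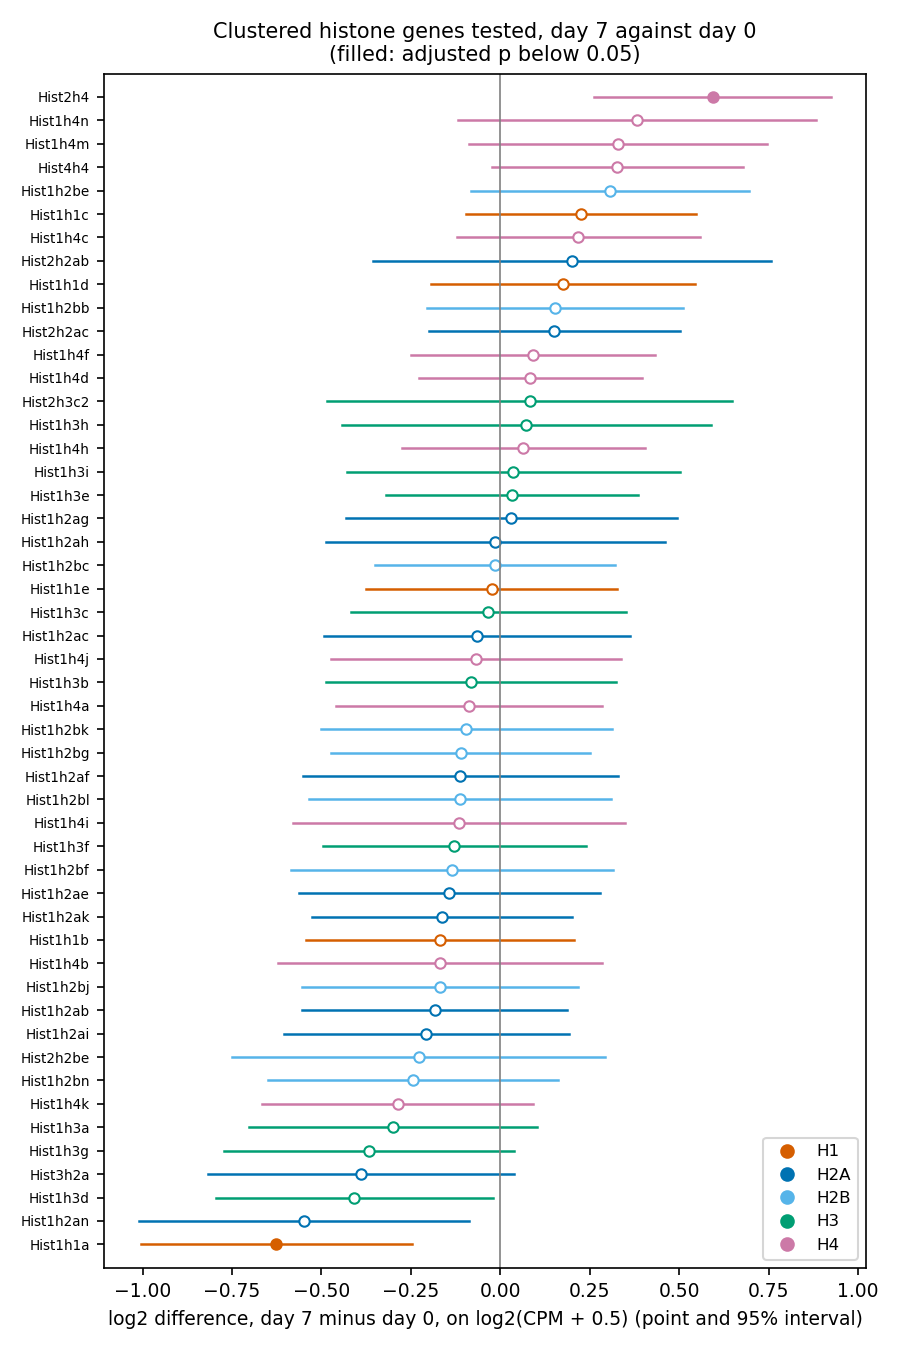
Difference between day 7 and day 0 (x axis, log2 scale of CPM + 0.5) for each of the 50 tested genes (y axis), as the limma estimate with its 95% interval, coloured by histone type. Filled points are the genes with an adjusted p under 0.05, Hist2h4 at 0.59 and Hist1h1a at -0.63.

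Many genes that act beside the histones in dividing cells were lower at day 7, while 2 of the 50 clustered histone genes passed the test. Over all genes tested 18.6% were lower and 12.6% higher, and the difference between these lists was not itself tested. Of 33 S phase genes, 18 were lower at day 7 and 0 higher, with a median of -0.54 (log2). Pole, a catalytic subunit of DNA polymerase epsilon, fell by 1.15 (SE 0.17, limma adjusted p = 6.47e-07). Mcm5, a subunit of the replicative helicase, fell by 0.98 and Rrm2, of ribonucleotide reductase, by 0.95. Of 20 G2 and mitosis genes, 17 were lower and 0 higher, with a median of -0.65. Kif20a, a kinesin of cell division, fell by 1.08, the mitotic kinase gene Plk1 by 0.88 and the kinetochore gene Cenpf by 0.87.

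Summed over the list, S phase genes took 1385, 1376 and 1005 CPM at day 0, 807, 567 and 734 at day 4 and 794, 696 and 822 at day 7. G2 and mitosis genes took 1748, 1589 and 1132 CPM at day 0, 909, 691 and 818 at day 4 and 922, 833 and 969 at day 7. Both lists were lower in every day 4 and day 7 library than at day 0, and their day 4 and day 7 libraries overlapped, unlike those of the histones. Per CPM of S phase genes there were 1.27 to 1.39 CPM of clustered histone genes at day 0, 1.59 to 1.71 at day 4 and 1.92 to 2.51 at day 7. This ratio within a library does not depend on the library total, and its 3 ranges did not overlap. The short RNAs given above were also highest at day 7, and their part in the ratio was not tested.

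**Figure D5:**
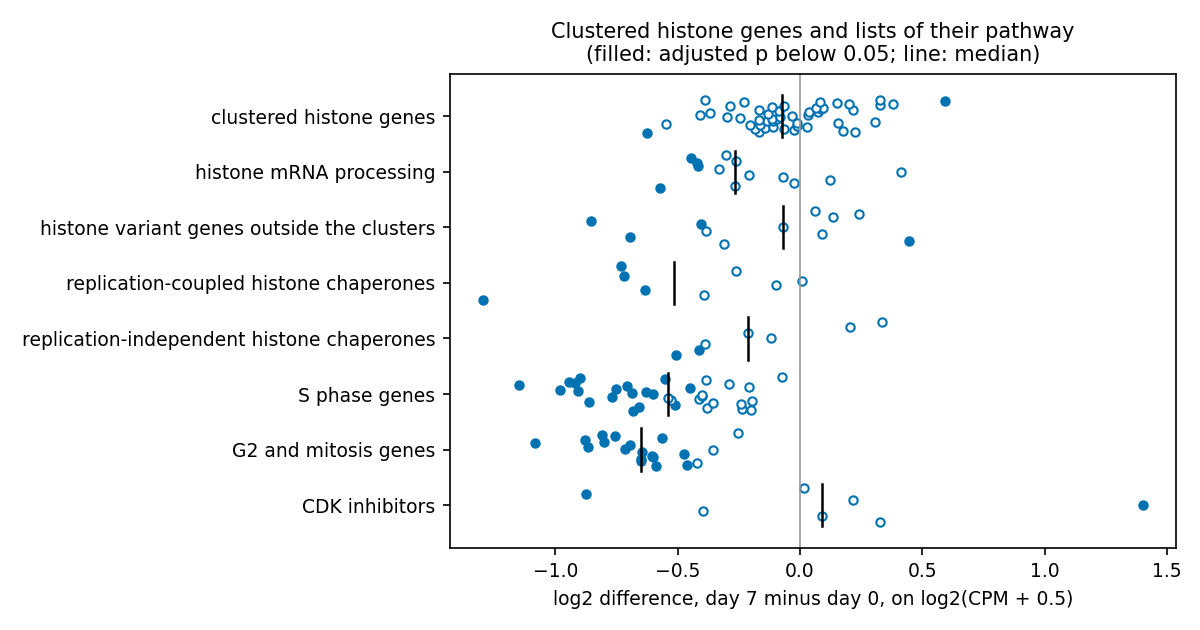
Difference between day 7 and day 0 (x axis, log2 scale of CPM + 0.5) for each tested gene of the clustered histone genes and of 7 lists of their pathway (y axis). Filled points have a limma adjusted p under 0.05, and vertical lines are medians, which lie at -0.07 for the histones, -0.54 for S phase genes and -0.65 for G2 and mitosis genes.

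The machinery that makes and ends histone mRNA was measured in 13 of 14 listed genes. Of these, 4 were lower at day 7 and 0 higher (median -0.27), against 18.6% and 12.6% of all genes. Casp8ap2 (FLASH), a factor of the histone locus body, fell by 0.57, Srrt (ARS2) by 0.45 and Npat, the activator of histone transcription downstream of cyclin E and CDK2, by 0.42. The other was Ncbp2, of the nuclear cap-binding complex, which fell by 0.42. Npat was called in 9 of 18 alternative settings, Ncbp2 in 10, Srrt in 12 and Casp8ap2 in 15. Slbp, the stem-loop binding protein, had 9.73, 8.02 and 5.66 RPKM at day 0, 5.67, 4.68 and 5.59 at day 4 and 6.94, 5.63 and 6.49 at day 7, a difference between day 7 and day 0 of -0.26 (95% interval -0.62 to 0.09). Its day 0 and day 7 libraries overlapped.

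Of 8 genes listed for histone handling during replication, 4 were lower and 0 higher (median -0.51). Asf1b fell by 1.30 (SE 0.19, limma adjusted p = 4.12e-07), Rbbp7 by 0.73, Nasp, which holds H3 and H4 before deposition, by 0.72 and Chaf1b, of the CAF-1 complex, by 0.63, called in 14 of 18 alternative settings. Of 7 genes listed for histone handling outside replication, 2 were lower and 0 higher, against 18.6% and 12.6% of all genes. Asf1a fell by 0.51, called in 12 of 18 alternative settings, and Atrx by 0.41, called in 10. Of the 11 histone variant genes outside the clusters, 1 was higher and 3 were lower, against 12.6% and 18.6% of all genes. H1f0 rose by 0.45 (SE 0.16, limma adjusted p = 0.0250). The macroH2A2 gene H2afy2 fell by 0.86, the linker histone gene H1fx by 0.70 and the macroH2A1 gene H2afy by 0.41, of which H1fx was called in 14 and H2afy in 11 of 18 alternative settings. Of 7 CDK inhibitors, Cdkn2a, which encodes p16 and p19ARF, rose by 1.4 (SE 0.17, limma adjusted p = 4.20e-09) and Cdkn2c, which encodes p18, fell by 0.88.

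Over the 7 lists, 2 of 99 tested genes were higher and 49 were lower, against 12.6% and 18.6% of all genes. The lower genes were 75 without day 0 replicate 3, where the calls in both directions over all genes were 6299 in place of 3971. They were 31 with day 0 replicate 1, day 0 replicate 2 or day 7 replicate 2 left out, where those calls were 3028 to 3233.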

How the data were processed

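Ribo-depleted total RNA (RNeasy, Ribo-Zero Gold) from 9 libraries was aligned by the authors with STAR 2.0.4b, and uniquely aligned, unambiguous reads were counted per gene with featureCounts (GRCm38, Ensembl release 76). The strand setting and read length are not given in the sources used here. The authors deposited CPM (reads per gene scaled to the library's reads on genes) and RPKM (CPM per kilobase of gene model), with day 0 and day 7 in one table of each unit and day 4 in another. All CPM values were whole multiples of 1 read (100%, within 0.001 reads), and reads on genes numbered 7741204 to 37306090 per library.

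Genes with a mean of at least 1 CPM over day 0 and day 7 were compared with limma 3.58.1 (R 4.3.3) on log2(CPM + 0.5), with Benjamini-Hochberg adjustment over all 12712 and a threshold of 0.05. Variances were moderated toward a trend of variance with level, with 42.9 prior and 4 residual degrees of freedom. The alternative on recovered reads, edgeR 4.0.16 quasi-likelihood, called 5468 genes, 2818 higher and 2650 lower. DESeq2 1.42.0 and TMM with voomWithQualityWeights, the study's own approach, were also run. No test crosses the tables. Code was tested on simulated data.

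Sequences came from GENCODE M21 transcripts and RefSeq promoters (GRCm38.p6). Members and lists were chosen with earlier results of these data known. Named were all H1 genes, the 3 highest of each core type by RPKM, members that passed the test, the 4 known for polyadenylated transcripts, and the 3 largest changes each way per list. Hist4h4, H2afx, H2afj, H2afv, H3f3a, H3f3b, Slbp, Chaf1b, Ncbp2, Bglap, Ibsp, the named osteoclast markers, the short RNAs and the stand-apart genes were chosen after their values were seen.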

Additional observations from a re-analysis of the deposited data

How the results depend on the processing

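The directions of Hist1h1a and Hist2h4 held under all 18 alternatives. Over single clustered histone genes and alternatives, 870 outcomes stayed as they were, 26 passed the threshold only under the alternative and 4 lost it, and no direction of a called gene reversed. The cause of the changes below was not tested. Over all genes, 1602 were higher and 2369 lower, and the higher calls were 2827 with median-of-ratios scaling, 2818 with edgeR, 2581 with DESeq2 and 3148 with TMM and voomWithQualityWeights. The share of calls that were higher was 40.3%, against 51.8%, 51.5%, 52.6% and 51.4% under these 4. Leaving rRNA-like and mitochondrial reads out of the totals, a setting chosen after seeing the data, gave 3855 lower calls and a share of 33.1%. Leaving out each library in turn gave 1174 to 1603 higher calls and 1527 to 4696 lower, the fewest without day 0 replicate 2 or day 7 replicate 2 (1548) and the most without day 0 replicate 3.

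Among clustered histone genes the higher calls were 3 with median-of-ratios scaling, 4 with edgeR, 5 with DESeq2 and 4 with TMM and voomWithQualityWeights, and the lower calls were 2 with robust variances, 3 with TMM and voomWithQualityWeights and 2 with rRNA-like and mitochondrial reads left out. With a library left out they were 0 to 3 higher and 0 to 8 lower. In the pathway lists the higher calls were 8, 9, 8 and 10 in the order of those 4 settings, and with a library left out 1 to 3 were higher and 31 to 75 lower.

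The mean summed CPM of the histone genes moved by less than the spread (SD) between replicates under every alternative. It stayed within 1582 to 1920 at day 0, 1087 to 1260 at day 4 and 1540 to 1907 at day 7. Leaving out 1 of 3 libraries cannot move a mean by as much as that SD, so those alternatives could not have shown otherwise. With the replicate number as a block, 1463 genes were higher and 1950 lower over all genes, 1 and 1 among the histone genes, and 2 and 40 in the lists. Same-numbered day 0 and day 7 libraries had deviations that correlated at -0.02, -0.18 and -0.44. With 3 libraries per stage, these values cannot show whether same-numbered libraries shared an isolation. Depth limits the 9 histone genes with few reads, which were not tested.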
